A study of Mus musculus with 26 samples.

Results

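The 36 collagen genes described here were taken from the deposited expression matrix by their symbols, from Col1a1 to Col27a1, out of 52454 gene symbols in the matrix. By structure they comprise 10 fibrillar genes, 6 basement membrane (type IV) genes, 6 genes of fibril-associated collagens with interrupted triple helices (FACIT), and 14 genes of other kinds. Levels are FPKM, the sequenced fragments of a gene scaled by transcript length and by the mapped reads of the library, so that levels of different genes can be set side by side. The study asked which loci the enzymes DNMT3A and DNMT3B newly methylate in development, and 10 of its 26 samples are RNA-seq libraries, 1 for each condition. The other 16 samples are methylation libraries and were not analysed here.

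The 10 libraries came from cultured embryonic fibroblasts and from E14.5 organs. The 2i-MEFs, female and F1 (129X1/SvJ and MSM/Ms), were Dnmt3a KO or Dnmt3b KO. They were grown at passage 1 from E14.5 chimaeras made by injecting GFP-labelled ES cells that had been kept in 2i/L medium and knocked out with CRISPR/Cas9, and drug selection and sorting were used to remove host cells, so each of these libraries depends on the ES cell line that was injected. The MEFs, male and C57BL6, were E14.5 cells at passage 1 from crosses of Dnmt3a heterozygous mice. The Dnmt3a allele of these mice, named tm1Enl in the methods, came from a B6;129S4 strain. WT and Dnmt3a KO MEFs were each treated with DMSO, the solvent, or with GSK126, an inhibitor of the histone H3K27 methyltransferase EZH2. Heart and liver were from male C57BL6 embryos at E14.5, the WT organs both from embryo number 4 and the Dnmt3a KO organs both from embryo number 25. The allele is constitutive, so it is not limited to the collagen-producing cells. No condition had a second library and no test was made. Genotype and treatment differences are therefore between single libraries without a replicate check, and sources are compared by the ranges of their libraries, which are different conditions and not replicates.

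Collagens are secreted proteins whose alpha chains wind around each other in a helix rich in glycine and proline. Fibrillar collagens of types I, III and V assemble into the banded fibrils of connective tissue, whereas those of types II and XI build the fibrils of cartilage. Type IV collagen forms the network of basement membranes under epithelia, around vessels and around muscle cells. FACIT collagens coat fibrils, and the remaining members form beaded filaments (type VI), anchoring fibrils (type VII), hexagonal networks (types VIII and X), multiplexins of basement membrane zones (types XV and XVIII) or transmembrane proteins (types XIII, XVII, XXIII and XXV). Fibroblasts are the main source of fibrillar collagen in most organs.

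The deposited values retain whole-read steps from which 9177500 to 26225000 mapped reads per library were estimated. At this depth, 1 FPKM on a transcript of 5000 bases stands for 44.0 to 125.9 reads. The Dnmt3a level was examined as a check of the labels. In 2i-MEFs it was 4.21 FPKM with Dnmt3a KO against 23.9 FPKM with Dnmt3b KO, and 53.5 FPKM in WT and 12.7 FPKM in KO liver, but it was 26.1 and 19.3 FPKM in WT MEFs with DMSO and GSK126 against 85.7 and 84.5 FPKM in KO MEFs, and 55.0 FPKM in WT against 125 FPKM in KO heart. The level covers the whole gene, including parts that a deletion may leave, so it does not settle the genotype. Because it was higher in the KO libraries of MEFs and heart, MEF, heart and liver libraries are called labelled Dnmt3a KO throughout, and the direction of their differences rests on the labels. The study reported Pax8 derepression in Dnmt3a KO MEFs and reduced methylation at the Hoxb cluster in Dnmt3a KO heart and liver. Neither was examined here. Defining markers matched the sources. The summed level of 8 cardiomyocyte markers was 51200 and 48100 FPKM in heart against at most 70.1 FPKM elsewhere, and 6 hepatocyte markers summed to 18000 and 10900 FPKM in liver against at most 33.4 FPKM elsewhere. The 8 fibroblast markers summed to 974 to 4290 FPKM in the 6 fibroblast libraries and 28.6 to 215 FPKM in the tissues.

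Collagen transcripts took their largest share in fibroblasts and their smallest in liver. The 36 genes summed to 22500 and 20100 FPKM in Dnmt3a KO and Dnmt3b KO 2i-MEFs. The sums were 14600 and 11100 FPKM in WT MEFs with DMSO and GSK126, and 12500 and 8380 FPKM in MEFs labelled Dnmt3a KO with DMSO and GSK126. In WT and labelled KO heart they were 2830 and 2900 FPKM, and in WT and labelled KO liver 832 and 490 FPKM. The 4 sources did not overlap, in the order 2i-MEFs, MEFs, heart and liver. As a share of all summed FPKM this was 3.18% and 2.87% in 2i-MEFs, 1.19% to 2.07% in MEFs, 0.321% and 0.331% in heart, and 0.0865% and 0.0489% in liver. In bulk tissue, fewer collagen-producing cells and less collagen RNA per cell cannot be told apart. The sum hid a difference in composition. Fibrillar genes made up 77.3% to 86.6% of collagen FPKM in the 6 fibroblast libraries, 51.5% and 52.1% in heart, and 61.0% and 53.7% in liver. Basement membrane genes made up 5.27% to 8.88% in fibroblasts but 30.0% and 29.2% in heart and 15.8% and 19.0% in liver.

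**Figure D1:**
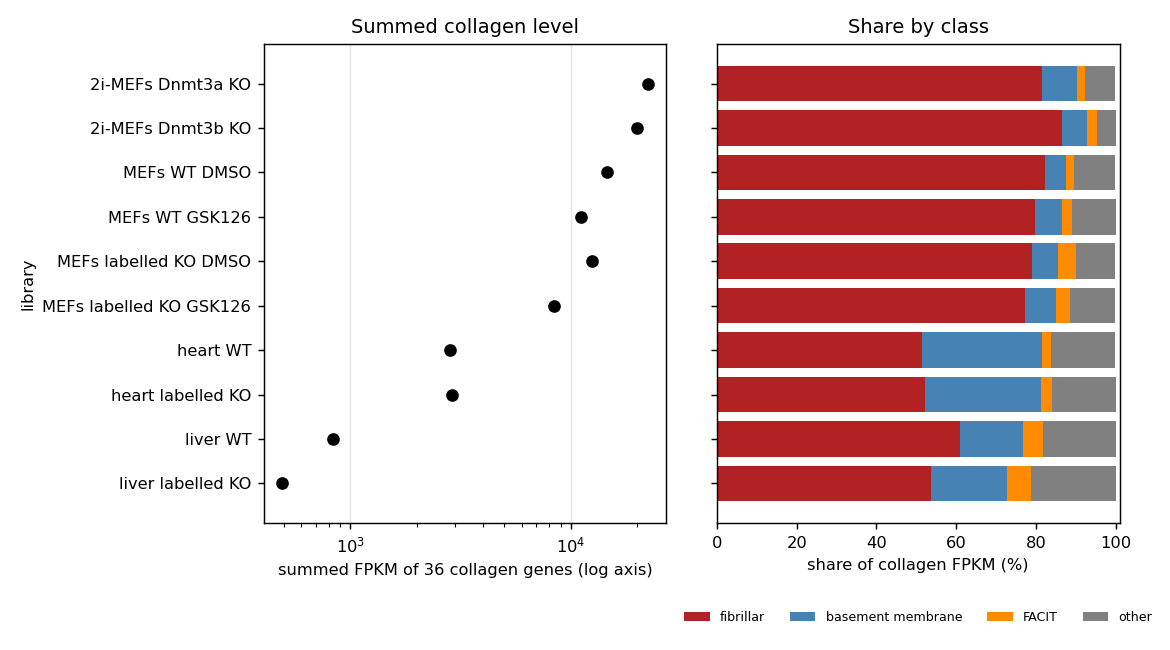
Left, summed FPKM of the 36 collagen genes in each library on a log axis, 1 point per library. Right, the share of that sum (%) from fibrillar, basement membrane, FACIT and other collagens. The sum lies between 8380 and 22500 FPKM in fibroblasts and between 490 and 2900 FPKM in tissues, and the basement membrane share is highest in the 2 heart libraries.

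The major fibrillar genes Col1a1 and Col1a2, which encode the chains of type I collagen, and Col3a1, the single chain of type III collagen of stretchable tissues, were among the 5 collagens with the highest levels in each source. Together they supplied 62.9% to 76.5% of collagen FPKM in fibroblasts and 43.9% to 54.1% in the tissues. Col1a1 was at 3864 and 4241 FPKM in Dnmt3a KO and Dnmt3b KO 2i-MEFs, 4281 and 3060 FPKM in WT MEFs with DMSO and GSK126, 3475 and 2504 FPKM in MEFs labelled Dnmt3a KO with DMSO and GSK126, 405 and 373 FPKM in WT and labelled KO heart, and 79.1 and 52.1 FPKM in WT and labelled KO liver. In the same order of libraries, Col3a1 was at 8810 and 6951 FPKM in 2i-MEFs, 3833 and 2398 FPKM in WT MEFs, 2754 and 1193 FPKM in MEFs labelled KO, 574 and 614 FPKM in heart, and 289 and 119 FPKM in liver. The balance between types III and I therefore differed by source. The ratio of Col3a1 to Col1a1 was 2.28 and 1.64 in 2i-MEFs, 1.42 and 1.65 in heart and 3.65 and 2.28 in liver, whereas it was below 1 in all 4 MEF libraries, from 0.476 to 0.895. This ratio was chosen after the levels were seen. Col1a1 was the highest collagen gene in each MEF library, and Col3a1 in each of the other 6.

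**Figure D2:**
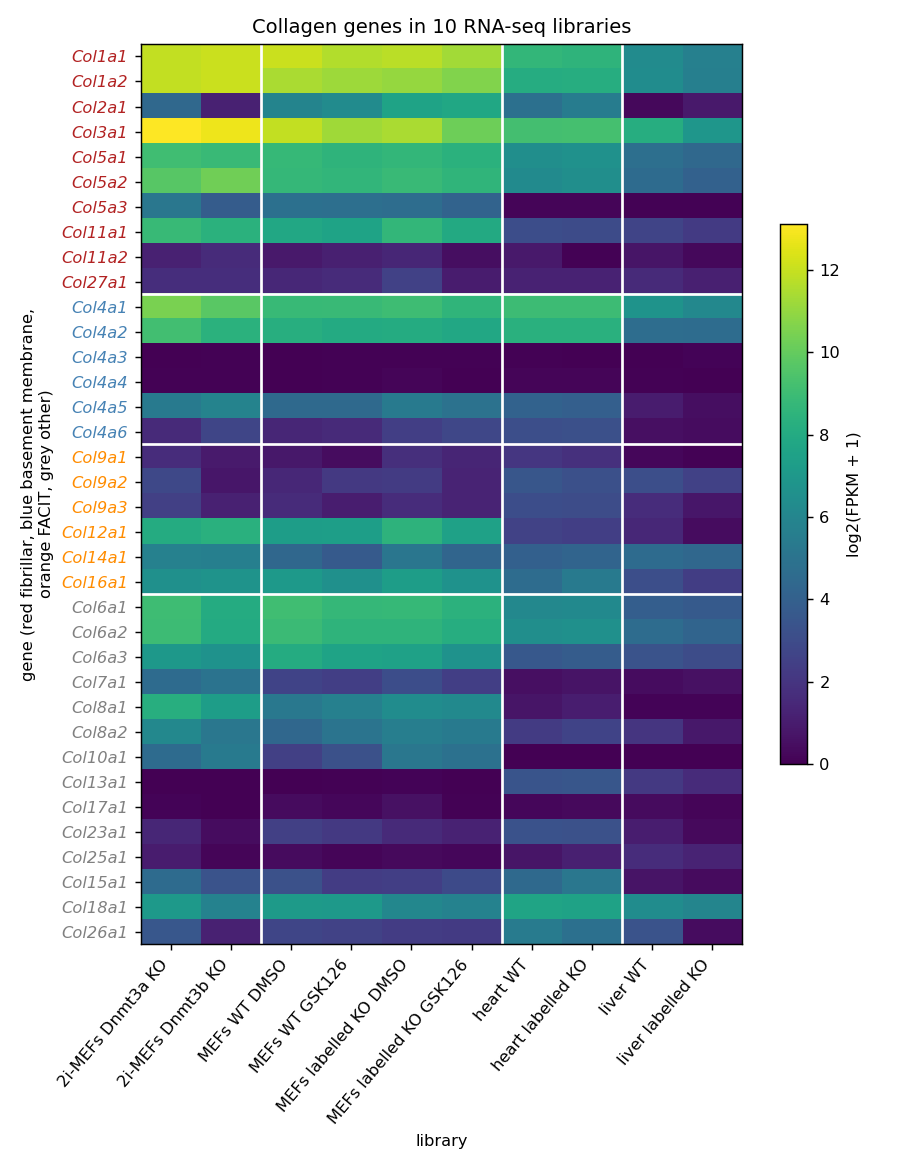
Level of each collagen gene (rows, ordered by class) in each of the 10 libraries (columns) as log2(FPKM + 1). Col1a1, Col1a2 and Col3a1 are the brightest rows in fibroblasts, Col13a1 is dark in the 6 fibroblast libraries, and Col10a1 is dark in the 4 tissue libraries.

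The minor fibrillar genes spread over a wider range. Col5a1 and Col5a2, whose chains of type V collagen nucleate type I fibrils, lay between 333 and 1218 FPKM in fibroblasts, between 75.1 and 96.7 FPKM in heart and between 15.7 and 26.2 FPKM in liver. Col11a1, a chain of the cartilage fibril that is also made in other mesenchyme, lay between 196 and 461 FPKM in fibroblasts and between 3.74 and 7.58 FPKM in the tissues. Col5a3, a minor type V chain, was at 12.9 to 35.8 FPKM in fibroblasts and at most 0.143 FPKM in the tissues. Col2a1, the cartilage collagen, had a different order of sources. It was at 20.8 and 1.29 FPKM in Dnmt3a KO and Dnmt3b KO 2i-MEFs, 60.2 and 79.7 FPKM in WT MEFs with DMSO and GSK126, 196 and 223 FPKM in MEFs labelled KO with DMSO and GSK126, 27.8 and 44.7 FPKM in WT and labelled KO heart, and 0.197 and 0.886 FPKM in WT and labelled KO liver. Heart thus had more Col2a1 than either 2i-MEF library. Col27a1, a fibrillar collagen of cartilage, stayed between 0.981 and 4.82 FPKM over all 10 libraries, and Col11a2 between 0.0514 and 2.06 FPKM, with a mean under 1 FPKM.

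Among basement membrane genes, Col4a1 and Col4a2 were abundant and the remaining chains were not. Col4a1 was at 1394 and 869 FPKM in Dnmt3a KO and Dnmt3b KO 2i-MEFs, 456 and 469 FPKM in WT MEFs with DMSO and GSK126, 517 and 384 FPKM in MEFs labelled KO with DMSO and GSK126, 513 and 503 FPKM in WT and labelled KO heart, and 105 and 68.5 FPKM in WT and labelled KO liver. The 2 heart levels of Col4a1 lay inside the range of the MEFs. Col4a5, which pairs with Col4a6 in the basement membranes of smooth muscle and skin, was at 21.3 to 58.0 FPKM in fibroblasts, at most 16.3 FPKM in heart and at most 0.991 FPKM in liver. Col4a6 was highest in heart, at 7.94 and 8.20 FPKM, against 1.67 to 5.80 FPKM in fibroblasts and at most 0.473 FPKM in liver. Col4a3 and Col4a4, chains of the mature kidney and lung basement membrane, did not exceed 0.0911 and 0.149 FPKM in any library.

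The FACIT genes split into fibril-surface collagens of soft tissue and the type IX chains of cartilage. Col12a1, which binds fibrils in tendon and other loaded tissue, was at 154 to 349 FPKM in fibroblasts, 4.47 and 4.99 FPKM in heart, and 1.79 and 0.36 FPKM in WT and labelled KO liver. Col14a1, a close relative, was highest in 2i-MEFs, at 53.8 and 49.4 FPKM, and was at 12.1 to 34.8 FPKM in MEFs, 15.4 and 17.7 FPKM in heart and 22.6 and 19.7 FPKM in liver, so the tissues lay inside the range of the MEFs. The ratio of Col12a1 to Col14a1 was accordingly 4.88 to 13.6 in fibroblasts, 0.324 and 0.252 in heart, and 0.0795 and 0.0183 in liver, a ratio also chosen after the levels were seen. Col16a1 was at 93.4 to 155 FPKM in fibroblasts and 4.14 to 41.9 FPKM in the tissues. The type IX genes Col9a1, Col9a2 and Col9a3 did not exceed 10.3 FPKM in any library and were highest in heart, at 2.58 to 3.15, 8.26 to 10.3 and 7.12 to 7.43 FPKM.

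Of the other collagens, the type VI genes Col6a1, Col6a2 and Col6a3, which form beaded filaments around cells, were at 101 to 541 FPKM in fibroblasts, 11.0 to 94.3 FPKM in heart and 7.19 to 23.5 FPKM in liver. Col18a1, the basement membrane multiplexin that is cleaved to endostatin, was the third collagen by level in liver and was highest in heart, with 201 and 186 FPKM in WT and labelled KO heart, 82.8 and 61.1 FPKM in liver, and 54.9 to 140 FPKM in fibroblasts. Col7a1, the anchoring fibril gene of skin, was at 22.7 and 31.1 FPKM in 2i-MEFs, 4.49 to 7.47 FPKM in MEFs and at most 0.632 FPKM in the tissues. The transmembrane collagens Col17a1, a hemidesmosome component, and Col25a1 had means under 1 FPKM. Col13a1, a transmembrane collagen known from the neuromuscular junction, was listed at 0 in 4 of the 6 fibroblast libraries and at 0.0468 and 0.0884 FPKM in the other two. In heart it was at 9.75 and 10.3 FPKM, and in WT and labelled KO liver at 3.52 and 2.07 FPKM. Col10a1, the network collagen of hypertrophic cartilage, showed the opposite distribution and was listed at 0 in all 4 tissue libraries. It was at 23.0 and 39.6 FPKM in Dnmt3a KO and Dnmt3b KO 2i-MEFs, 4.50 and 8.53 FPKM in WT MEFs with DMSO and GSK126, and 35.3 and 29.1 FPKM in MEFs labelled KO with DMSO and GSK126.

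Chains that join in a single molecule kept their ratio within narrow limits in some pairs and not in others. Type I collagen holds more alpha1 than alpha2 chains, and the ratio of Col1a1 to Col1a2 was 1.02 and 1.01 in 2i-MEFs, 1.33 to 1.65 in MEFs, 1.45 and 1.31 in heart, and 0.966 and 1.04 in liver. The ratio of Col6a1 to Col6a2 lay between 0.605 and 1.20 over all 10 libraries, but that of Col6a3, the third chain of the molecule, to Col6a1 between 0.162 and 0.649. Col5a1 to Col5a2 ran from 0.388 to 1.32. For Col4a1 to Col4a2 it was 1.56 to 1.97 in MEFs and heart, 2.48 and 2.60 in 2i-MEFs, and 4.25 and 2.87 in liver. The ratio of Col4a5 to Col4a6 had a wider range, with 20.2 and 10.2 in 2i-MEFs, 5.07 to 12.7 in MEFs, and 2.05 and 1.77 in heart. For type VIII collagen, of Descemet's membrane and vessel walls, Col8a1 exceeded Col8a2 by 4.45 and 4.40 times in 2i-MEFs and 1.60 to 1.87 times in MEFs. In labelled KO heart, the 1 tissue library where both reached 1 FPKM, the ratio was 0.205.

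**Figure D3:**
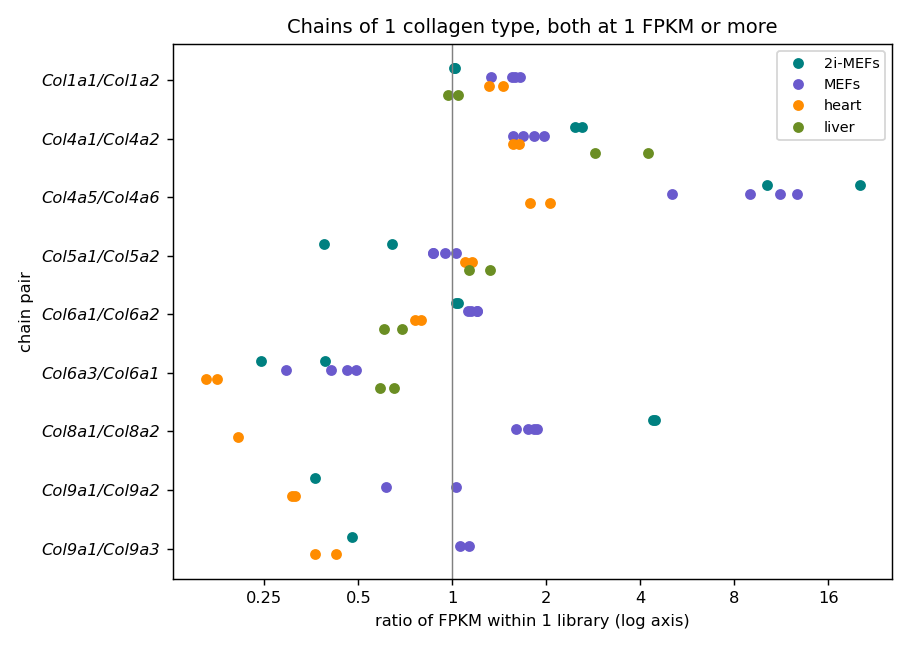
Ratio of FPKM between chains of a collagen type within a library (log axis), for libraries where both genes reached 1 FPKM, coloured by source with 1 point per library. Col1a1 to Col1a2 stays between 0.966 and 1.65, whereas Col4a5 to Col4a6 runs from 1.77 in heart to 20.2 in 2i-MEFs.

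The type IV genes lie head to head in pairs, and the annotated gene models (mm10) show how close their starts are. On chromosome 8 the 5′ ends of Col4a1, on the minus strand, and Col4a2, on the plus strand, overlapped by 22 bases. On chromosome 1, 71 bases separated Col4a4 from Col4a3, and on chromosome X, 1308 bases separated Col4a6 from Col4a5. Promoter windows of 300 bases, from 250 before to 50 after the annotated start, were taken from RefSeq (GRCm38.p6), which held 31 windows for 28 of the 36 genes. They were richer in GC than promoters in general, with a median of 60.3% against 52.7% over all 32851 windows, and their median ratio of observed to expected CpG was 0.49 against 0.38. The motif GGGCGG (either strand), the GC box, was present in 20 of the 31 windows, or 64.5%, against 35.7% of all windows. The motifs TATAAA and CCAAT (either strand) were present in 5 and 12 windows, or 16.1% and 38.7%, against 13.6% and 37.4% of all windows. A match is a description of the sequence, not of a binding site.

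Windows are shown for the type I and III genes Col1a2 and Col3a1, which dominated the fibroblast libraries, for the Col4a1 and Col4a2 pair, which share their start region, and for Col10a1 and Col13a1, which had opposite distributions between fibroblasts and tissues. They were chosen with the levels known. Each is written 5′ to 3′ on the strand of its gene, with capitals marking the TATA box TATAAA, the CCAAT box CCAAT and the GC box GGGCGG, on either strand. The positions are chr6:4505368-4505667 (plus strand) for Col1a2, chr1:45311288-45311587 (plus) for Col3a1, chr8:11312777-11313076 (minus) for Col4a1, chr8:11312555-11312854 (plus) for Col4a2, chr10:34389731-34390030 (plus) for Col10a1 and chr10:61979059-61979358 (minus) for Col13a1.
Col1a2: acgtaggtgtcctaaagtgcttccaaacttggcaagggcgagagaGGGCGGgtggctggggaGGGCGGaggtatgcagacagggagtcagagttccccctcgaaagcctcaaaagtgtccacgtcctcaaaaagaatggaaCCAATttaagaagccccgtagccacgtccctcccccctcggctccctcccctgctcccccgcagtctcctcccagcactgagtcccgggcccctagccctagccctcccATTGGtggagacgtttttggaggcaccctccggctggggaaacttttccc
Col3a1: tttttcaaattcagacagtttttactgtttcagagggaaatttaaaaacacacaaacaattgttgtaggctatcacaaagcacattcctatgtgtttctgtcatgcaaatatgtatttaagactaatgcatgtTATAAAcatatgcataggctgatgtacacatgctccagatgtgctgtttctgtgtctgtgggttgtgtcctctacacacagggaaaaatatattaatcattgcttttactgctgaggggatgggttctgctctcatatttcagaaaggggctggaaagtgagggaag
Col4a1: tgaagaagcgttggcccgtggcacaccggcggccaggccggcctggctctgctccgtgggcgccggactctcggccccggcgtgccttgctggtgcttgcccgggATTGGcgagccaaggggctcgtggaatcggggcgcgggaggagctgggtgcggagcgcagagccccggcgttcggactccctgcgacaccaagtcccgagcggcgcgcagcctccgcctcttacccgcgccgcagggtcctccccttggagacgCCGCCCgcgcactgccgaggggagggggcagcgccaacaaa
Col4a2: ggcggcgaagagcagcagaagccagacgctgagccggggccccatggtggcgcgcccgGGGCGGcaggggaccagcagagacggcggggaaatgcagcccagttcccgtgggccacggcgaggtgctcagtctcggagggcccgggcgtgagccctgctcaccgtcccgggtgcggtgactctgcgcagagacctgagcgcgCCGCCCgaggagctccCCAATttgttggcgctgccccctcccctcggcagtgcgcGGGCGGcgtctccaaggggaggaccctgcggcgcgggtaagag
Col10a1: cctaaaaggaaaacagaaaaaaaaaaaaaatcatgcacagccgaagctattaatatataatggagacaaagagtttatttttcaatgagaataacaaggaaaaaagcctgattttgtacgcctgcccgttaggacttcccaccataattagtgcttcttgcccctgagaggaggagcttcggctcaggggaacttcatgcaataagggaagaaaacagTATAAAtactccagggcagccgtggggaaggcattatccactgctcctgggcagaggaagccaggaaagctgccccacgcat
Col13a1: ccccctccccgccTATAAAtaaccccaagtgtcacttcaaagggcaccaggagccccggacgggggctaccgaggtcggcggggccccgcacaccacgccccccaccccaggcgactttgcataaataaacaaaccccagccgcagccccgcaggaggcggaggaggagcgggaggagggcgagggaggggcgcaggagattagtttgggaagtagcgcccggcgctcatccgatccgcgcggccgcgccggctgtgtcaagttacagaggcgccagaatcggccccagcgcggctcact
The Col4a1 and Col4a2 windows shared 78 bases and held the most CpG of the 6, with 37 and 33 and an observed to expected ratio of 0.90 and 0.82. The Col3a1 window held no CpG at all and had a TATAAA starting 117 bases before the annotated start. The Col1a2 window held 13 CpG. Col1a1 had no window. The Col10a1 window had a TATAAA starting 32 bases before the annotated start and 6 CpG. The TATAAA of Col13a1 lay 237 bases before its start in a window with 29 CpG and a ratio of 0.84.

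The comparisons were limited to symbols whose average over the 10 libraries reached 1 FPKM, which left 14150 features and 31 of the 36 collagens. Col4a3, Col4a4, Col11a2, Col17a1 and Col25a1 were below. Ratios are given on the log2(FPKM + 1) scale, which understates differences of low genes, and a gene is counted as higher or lower where the libraries differed by at least 2-fold on that scale. With several libraries on a side, every library of one side had to be at least 2-fold from every library of the other.

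In fibroblasts against tissues, 15 of the 31 collagens were higher in all 6 fibroblast libraries than in all 4 tissue libraries by at least 2-fold, where 5.12% of all features were, and 1 was lower, where 3.00% were. The 15 comprised 6 of 9 fibrillar genes, 2 of 6 FACIT genes, 7 of 12 other genes and none of the 4 basement membrane genes. The gap between the lowest fibroblast and the highest tissue library was largest for Col12a1, at 4.69 on the log2 scale, followed by Col11a1 at 4.52, Col8a1 at 4.20, Col5a3 at 3.60 and Col6a3 at 2.84. Col8a1 was at 36.8 to 301 FPKM in fibroblasts and at most 1.06 FPKM in the tissues. Col13a1 was the gene that was lower, with a gap of 1.49 between 0.0884 FPKM, its highest fibroblast level, and 2.07 FPKM, its lowest tissue level. Col3a1 missed the 2-fold gap at 0.96, between 1193 FPKM in MEFs labelled KO with GSK126 and 614 FPKM in labelled KO heart. Counting ranges without overlap at any distance, 17 collagens lay above in fibroblasts, where 19.8% of features did, and 1 below, where 17.0% did. In the other 13 genes the ranges overlapped, Col4a1, Col4a2 and Col18a1 among them. Growth in culture, and for the 2i-MEFs also sex and strain, differ between these sources and cannot be told apart from the cell type.

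Between the organs, heart exceeded liver by at least 2-fold in all libraries for 19 of 31 collagens, where 15.8% of features did so, and no collagen was higher in liver by this criterion, where 13.8% of features were. The 19 comprised all 4 basement membrane genes tested, 5 of 9 fibrillar, 3 of 6 FACIT and 7 of 12 other genes. The gap was largest for Col2a1 at 3.93, Col15a1, a multiplexin of vessel and muscle basement membranes, at 3.78, Col4a2 at 3.61, Col4a5 at 2.96 and Col4a6 at 2.60 on the log2 scale. Col15a1 was at 21.0 and 36.2 FPKM in WT and labelled KO heart and at 0.599 and 0.307 FPKM in liver, and Col4a2 at 314 and 320 FPKM against 24.8 and 23.9 FPKM. The ranges did not overlap for 27 collagens above in heart, where 39.7% of features were, and 1 below, where 42.3% were. This was Col14a1, whose 2 liver libraries lay above both heart libraries. Col3a1 had a gap of 0.99, set by WT liver at 289 FPKM. The WT liver library held more skeletal muscle marker RNA than the labelled KO liver, with sums of 289 and 113 FPKM, of which Mylpf made up 231 and 110 FPKM. Without the WT liver library 22 collagens were higher in heart, a setting for which the share of all features was not computed. The 8 endothelial markers summed to 359 and 354 FPKM in WT and labelled KO heart and to 168 and 143 FPKM in liver. The 8 fibroblast markers summed to 208 and 215 FPKM in heart and 42.1 and 28.6 FPKM in liver, with 5 of the 8 higher in heart, and the 5 smooth muscle markers to 1730 and 1350 FPKM in heart and 51.6 and 31.8 FPKM in liver. The 8 cartilage markers summed to 23.6 and 16.9 FPKM in heart and 2.19 and 1.43 FPKM in liver. For the 5 mesothelial markers the sums were 199 and 178 FPKM in heart and 11.9 and 8.97 FPKM in liver. The 6 erythroid markers were higher in liver, with sums of 27000 and 18500 FPKM in heart and 94200 and 128000 FPKM in liver. The part of these markers in the collagen levels was not tested.

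The 2i-MEFs and MEFs differed less. A gap of at least 2-fold was seen for 1 collagen higher in 2i-MEFs, Col7a1, and 1 lower, Col2a1, where 1.51% and 2.88% of features were. Col7a1 had a gap of 1.48 and Col2a1 of -1.49 on the log2 scale, with 20.8 and 1.29 FPKM of Col2a1 in 2i-MEFs against at least 60.2 FPKM in MEFs. Without overlap but closer than 2-fold, Col8a1, Col3a1 and Col5a2 had the next gaps, of 0.93, 0.86 and 0.81. In all, 10 collagens lay above and 1 below in 2i-MEFs without overlap, against 23.6% and 21.0% of features. Compared with the 2 WT MEF libraries alone, Col7a1, Col8a1, Col10a1 and Col14a1 were at least 2-fold higher in 2i-MEFs and Col2a1 was lower. The share of all features was not computed for that setting, so these calls have no background beside them. The 4 macrophage markers summed to 3.53 and 2.32 FPKM in the sorted 2i-MEFs and 184 to 275 FPKM in MEFs. Of the 5 mesothelial markers, 3 were at least 2-fold lower in 2i-MEFs, with sums of 14.2 and 17.1 FPKM against 73.4 to 351 FPKM in MEFs, and of the 8 fibroblast markers, 2 were higher, Postn with a gap of 2.73 and Fap of 2.61. Their part was not tested. Strain, sex, the chimaera origin and genotype, as both 2i-MEF libraries were knockouts, cannot be told apart here.

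Within 2i-MEFs, more collagens were higher than lower in the Dnmt3a KO library relative to the Dnmt3b KO library. Of 31 collagens, 7 were at least 2-fold higher, where 4.23% of features were, and 1 was lower, where 2.51% were. The median log2 ratio of the collagens was 0.48, against 0.02 over all features, or 0.32 over all 36 without the filter on the mean level, and 9 of 31 ratios were below 0, against 44.5% of features. Col2a1 reached 20.8 FPKM in the Dnmt3a KO library against 1.29 FPKM in the other, a log2 ratio of 3.25. The FPKM ratio was 16.1 with a 95% counting interval of 12.4 to 21.4, which covers counting error alone. Col26a1, a little-studied collagen, was at 10.9 against 1.34 FPKM, and Col9a2 at 6.08 against 0.72 FPKM, with log2 ratios of 2.34 and 2.04. These genes had low levels in the Dnmt3b KO library. Col5a3 at 35.8 against 12.9 FPKM, Col9a3 at 4.66 against 1.28 FPKM, Col18a1 at 137 against 55.8 FPKM and Col15a1 at 22.8 against 9.09 FPKM completed the 7. Col4a6 was lower, at 1.99 against 5.66 FPKM, with a log2 ratio of -1.16, whereas its partner Col4a5 was at 40.1 against 58.0 FPKM. Collagens of cartilage did not share a direction, as Col10a1 had a log2 ratio of -0.76 and Col27a1 of 0.01 beside 0.73 for Col9a1 and the higher ratios of Col2a1, Col9a2 and Col9a3. The type I genes hardly differed, Col1a1 with a log2 ratio of -0.13 and Col1a2 of -0.15. The 8 cartilage markers summed to 30.6 FPKM in the Dnmt3a KO and 6.29 FPKM in the Dnmt3b KO library, with Comp at 13.8 against 0.0984 FPKM, Acan at 3.00 against 2.09 FPKM and Matn1 at 0.0508 FPKM against 0. Of the 5 that passed the mean level, 3 were at least 2-fold higher, namely Comp, Matn4 and Hapln1, and none was lower. The median log2 ratio of these 5 markers was 1.20. The 5 smooth muscle markers summed to 3020 FPKM in the Dnmt3a KO and 4540 FPKM in the Dnmt3b KO library. Their part in the collagen differences was not tested. No WT 2i-MEF expression library was analysed here, so which of the 2 libraries departs from WT cannot be read from these values.

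**Figure D4:**
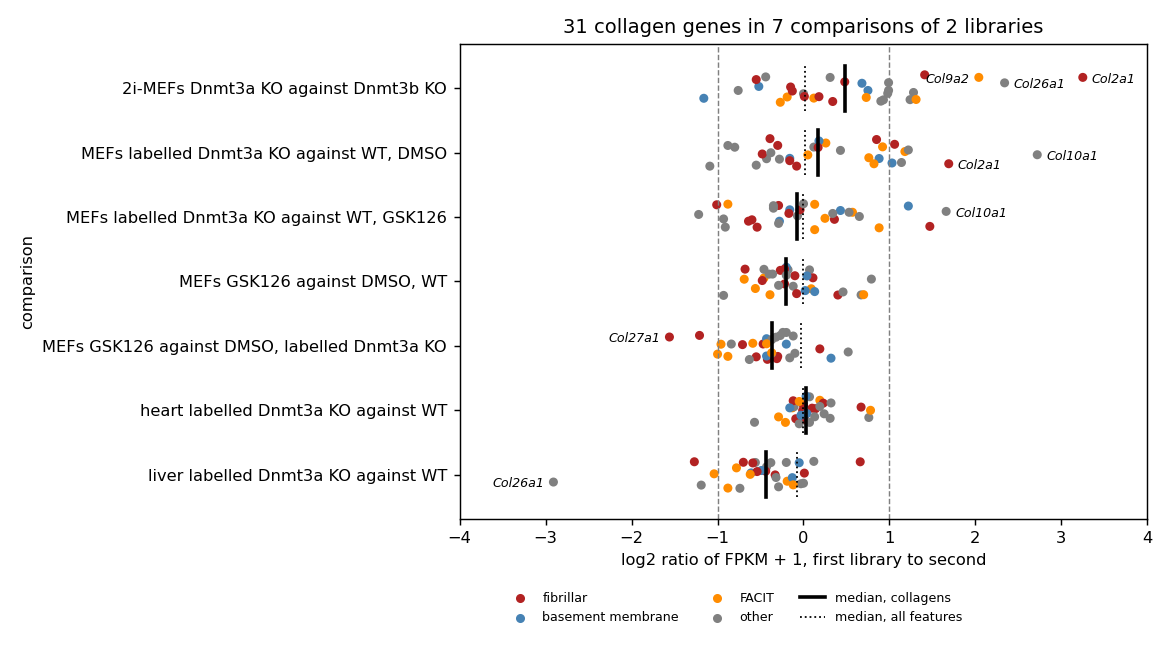
Log2 ratio of FPKM + 1 for the 31 collagens that passed the mean level in 7 comparisons of 2 libraries, coloured by class, with points shifted vertically for legibility. Solid and dotted bars are the medians of the collagens and of all 14150 features, dashed lines mark 2-fold. The collagen median is 0.48 in the 2i-MEF comparison and -0.44 in liver, and all heart points lie inside the lines.

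In MEFs with DMSO, the library labelled Dnmt3a KO had 7 of 31 collagens at least 2-fold above WT, where 3.27% of features were, and 1 below, where 1.54% were. With a pseudocount of 0.1 FPKM, 2 were below. The median log2 ratio was 0.17, against 0.02 over all features, and 13 of 31 ratios were below 0, against 44.7% of features. Col10a1 differed most, at 35.3 FPKM against 4.50 FPKM in WT, with a log2 ratio of 2.72 and an FPKM ratio of 7.84 (95% counting interval 6.86 to 8.99). Col2a1 followed at 196 against 60.2 FPKM, with a log2 ratio of 1.69. Next came both type VIII genes, Col8a2 at 47.0 against 19.7 FPKM and Col8a1 at 82.3 against 36.8 FPKM, and Col12a1 at 349 against 154 FPKM. Col27a1 at 4.82 against 1.79 FPKM and Col4a6 at 4.47 against 1.67 FPKM completed the 7. All 6 FACIT genes had ratios above 0, with a median of 0.79, where with GSK126 5 of 6 did, with a median of 0.19. Col18a1 was lower, at 65.2 against 140 FPKM, with a log2 ratio of -1.09.

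With GSK126, the comparison of the same labels gave 3 collagens higher, where 2.12% of features were, and 2 lower, where 2.14% were. With a pseudocount of 0.1 FPKM, 4 were lower. Col10a1 was at 29.1 against 8.53 FPKM (log2 ratio 1.66), Col2a1 at 223 against 79.7 FPKM (1.47) and Col4a6 at 5.80 against 1.92 FPKM (1.22). Col18a1 was at 54.9 against 129 FPKM (-1.22) and Col3a1 at 1193 against 2398 FPKM (-1.01). The median was -0.07, against 0.00 over all features, with 17 of 31 ratios below 0, against 47.9% of features. Col10a1, Col2a1, Col4a6 and Col18a1 thus differed by at least 2-fold in the same direction under both treatments, in different libraries of the same labels, although Col4a6 with DMSO went from 1.03 to 0.99 once libraries were rescaled by the median ratio. By the stricter rule that every labelled KO library lies at least 2-fold from every WT library, Col2a1 and Col10a1 were higher and none was lower, with gaps of 0.90 for Col4a6 and -0.97 for Col18a1. Over both treatments, 9 collagens lay above and 6 below WT without overlap, against 21.9% and 18.3% of features. Marker RNA of other cell types also differed between these libraries. The cartilage markers summed to 90.2 and 65.2 FPKM in labelled KO MEFs with DMSO and GSK126 against 19.2 and 17.7 FPKM in WT, of which Comp made up 74.3, 53.9, 8.91 and 7.76 FPKM, while Acan did not exceed 0.997 FPKM and Matn1 0.368 FPKM. Of the 5 that passed the mean level, 2 with DMSO, Comp and Hapln1, and 1 with GSK126, Comp, were at least 2-fold higher and none was lower. Of all features, 3.27% and 2.12% were higher. The median log2 ratios of these 5 markers were 0.38 and 0.27. Cnmd was at 2.55 and 1.68 FPKM against 0.0958 and 0.2 FPKM, and Sox9 at 4.35 and 4.54 FPKM against 5.06 and 4.36 FPKM. The 5 mesothelial markers summed to 138 and 351 FPKM against 73.4 and 85.1 FPKM, and the 6 bone markers to 23.6 and 13.8 FPKM against 9.27 and 10.2 FPKM. The 8 fibroblast markers had median log2 ratios of -0.40 and -0.56. The 8 skeletal muscle markers summed to 66.9 and 40.3 FPKM against 25.3 and 32.4 FPKM, of which Acta1 made up 40.5, 21.7, 15.5 and 14.7 FPKM. Of the 6 that passed the mean level, 3 were at least 2-fold higher with DMSO, where 3.27% of features were, and none with GSK126. Their median log2 ratios were 0.59 and -0.09. The 4 macrophage markers summed to 184 and 197 FPKM against 275 and 259 FPKM. Their part was not tested.

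**Figure D5:**
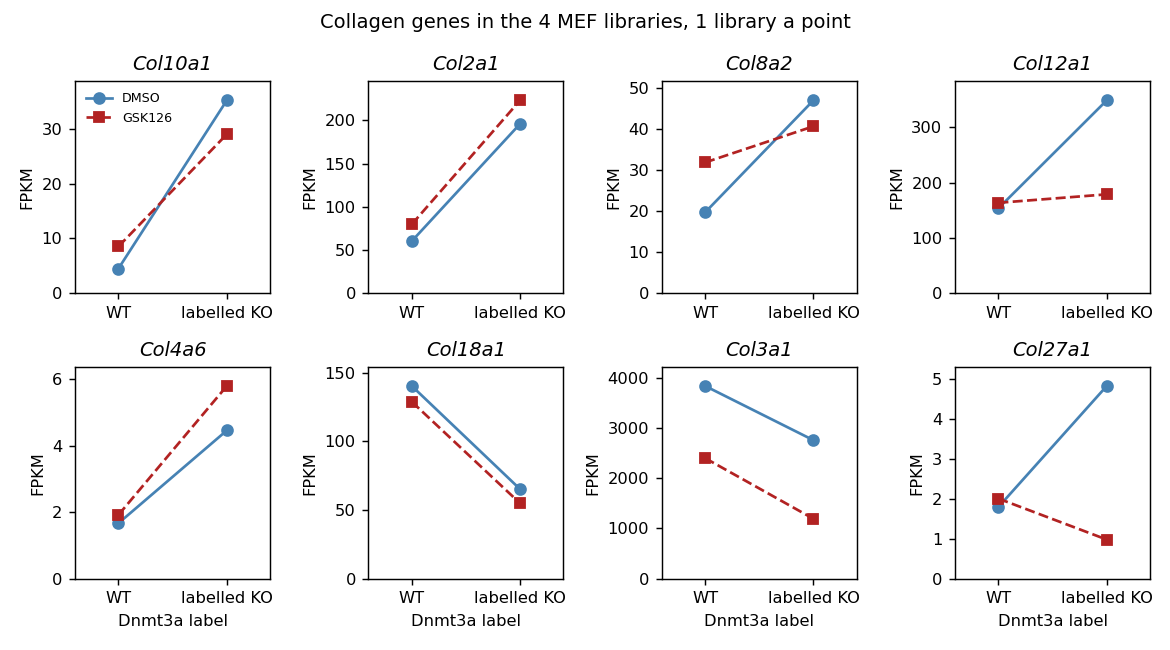
FPKM of 8 collagen genes in WT MEFs and MEFs labelled Dnmt3a KO, with DMSO (circles, solid lines) or GSK126 (squares, dashed lines), 1 library per point and each axis from 0. Col10a1, Col2a1 and Col4a6 are higher and Col18a1 and Col3a1 lower in the labelled KO under both treatments, whereas Col27a1 is higher with DMSO and lower with GSK126.

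With GSK126 more collagens had levels below than above those with DMSO. In WT MEFs no collagen differed by 2-fold in either direction, where 1.46% of features were higher and 1.07% lower, yet 20 of 31 had a ratio below 0, against 48.2% of features. The median log2 ratio was -0.20, against 0.00 over all features. Col15a1 differed most, at 3.96 FPKM with GSK126 against 8.44 FPKM with DMSO (-0.93, or -1.07 with a pseudocount of 0.1 FPKM), then Col10a1 at 8.53 against 4.50 FPKM (0.79), Col9a2 at 3.54 against 1.79 FPKM (0.70), Col14a1 at 12.1 against 20.1 FPKM (-0.69) and Col3a1 at 2398 against 3833 FPKM (-0.68). In MEFs labelled Dnmt3a KO, 2 collagens were at least 2-fold lower with GSK126, where 2.37% of features were, and none was higher, where 1.41% were. These were Col27a1 at 0.981 against 4.82 FPKM (-1.56) and Col3a1 at 1193 against 2754 FPKM (-1.21). Col9a2 at 1.47 against 3.94 FPKM lay just inside the limit, followed by Col12a1 at 179 against 349 FPKM (-0.96) and by Col11a2, which had not passed the mean level, at 0.412 against 1.65 FPKM. Here 28 of 31 ratios were below 0, against 53.6% of features, with a median of -0.37 against -0.03. In both genotypes together, 11 collagens lay below their DMSO levels without overlap, where 17.7% of features did, and none above, where 14.9% did. The 11 included Col1a1, Col3a1, Col5a1, Col5a2, Col6a1 and Col6a2, and the sum of collagen FPKM was lowest among MEFs in the labelled KO library with GSK126. Markers of other cells also differed with GSK126 in MEFs labelled Dnmt3a KO. Of the 5 mesothelial markers, 4 were at least 2-fold higher with GSK126, and they summed to 351 against 138 FPKM with DMSO. The 8 fibroblast markers had a median log2 ratio of -0.46, with sums of 974 and 1220 FPKM and Postn at 176 and 436 FPKM, and the 5 smooth muscle markers one of -0.67, with sums of 1900 and 2680 FPKM. In WT MEFs, these 3 lists had medians of 0.04, -0.11 and 0.06. Their part was not tested. These comparisons use the same 4 libraries as the genotype comparisons and are not independent of them.

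In heart, labelled Dnmt3a KO and WT differed by less than 2-fold for each of the 31 collagens, where 1.38% of features were higher and 1.20% lower. The median log2 ratio was 0.03, against 0.00 over all features, and 13 of 31 ratios were below 0, against 49.4% of features. Among genes that passed, the largest ratios were those of Col16a1 at 41.9 FPKM in the labelled KO against 24.0 FPKM in WT (0.78), Col15a1 at 36.2 against 21.0 FPKM (0.76), Col2a1 at 44.7 against 27.8 FPKM (0.67) and Col26a1 at 28.0 against 42.1 FPKM (-0.57). Col11a2, under the mean level, was at 0.0514 against 0.877 FPKM, or about 5 against 97 reads if all came from its longest transcript. The abundant genes were close, Col1a1 at 373 against 405 FPKM, Col3a1 at 614 against 574 FPKM and Col4a1 at 503 against 513 FPKM. The erythroid markers summed to 18500 FPKM in the labelled KO and 27000 FPKM in WT heart.

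In liver, most collagen levels were lower in the labelled Dnmt3a KO library than in WT. Of 31 collagens, 4 were at least 2-fold lower, where 1.72% of features were, and none was higher, where 0.89% were. With a pseudocount of 0.1 FPKM in place of 1, 7 were lower and 1 was higher, and after rescaling by the median ratio 3 were lower, without Col12a1. A ratio below 0 was seen for 27 of 31, against 61.6% of features, and the median was -0.44 against -0.08, or -0.60 with the smaller pseudocount. Col26a1 was at 0.354 FPKM in the labelled KO against 9.21 FPKM in WT, a log2 ratio of -2.91. WT exceeded it 26.0-fold in FPKM, about 623 against 24 reads. Col3a1, the most abundant collagen of liver, was at 119 against 289 FPKM (-1.27), Col8a2 at 0.78 against 3.06 FPKM (-1.19) and Col12a1 at 0.36 against 1.79 FPKM (-1.04, and -0.99 after rescaling). The fifth was Col9a3, at 0.733 against 2.18 FPKM (-0.88). The type I genes Col1a1 and Col1a2 had ratios of -0.59 and -0.70, and Col2a1 was among the 3 with a ratio above 0, at 0.886 against 0.197 FPKM. Marker RNA of several cell types also differed between these liver libraries. The 8 skeletal muscle markers summed to 289 FPKM in WT and 113 FPKM in labelled KO liver, of which Mylpf made up 231 and 110 FPKM. Myod1 was at 2.55 FPKM against 0, Myog at 6.31 against 0.15 FPKM, Myh3 at 9.96 against 0.248 FPKM and Acta1 at 28.4 against 0.624 FPKM. The 8 cardiomyocyte markers summed to 70.1 against 21.2 FPKM, with Actc1 at 48.5 against 3.97 FPKM. Of these 8, 3 were at least 2-fold lower in the labelled KO and 1, Myl2, was higher, with a median log2 ratio of -0.01. The 8 fibroblast markers summed to 42.1 against 28.6 FPKM. The 6 stellate cell markers, of the collagen-producing cells of liver, summed to 68.5 FPKM in WT and 65.9 FPKM in the labelled KO, but 4 of the 6 were lower in the labelled KO and the median log2 ratio of the 5 that passed the mean level was -0.33. For WT and labelled KO in turn, Des had 8.91 and 4.22 FPKM, Ngfr 5.60 and 3.46 FPKM, Lhx2 10.5 and 8.20 FPKM and Lrat 0.481 and 0.377 FPKM, whereas Reln had 36.3 and 42.4 FPKM and Hand2 6.65 and 7.22 FPKM. The 6 erythroid markers summed to 94200 FPKM in WT and 128000 FPKM in the labelled KO, and the 6 hepatocyte markers to 18000 and 10900 FPKM. The part of these cell types in the collagen differences was not tested.

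Genes whose products modify, cut, bind or accompany collagens were listed in 5 groups, with the collagens outside the 36 as a further group. In fibroblasts against tissues, 11 of the 19 genes of collagen folding and modification that passed the mean level were at least 2-fold higher in fibroblasts and none was lower, where 5.12% and 3.00% of all features were, which is also the background of the counts that follow. The largest gaps were those of Sparc, a collagen-binding matrix protein, at 1.75 and P3h3, a prolyl 3-hydroxylase, at 1.70 on the log2 scale. Of 12 genes of procollagen cleavage and crosslinking, 7 were higher, led by Lox, which oxidises lysines for crosslinks, with a gap of 5.12, and by Pcolce, an enhancer of procollagen C-proteinase, with 2.52. Lox was at 465 to 902 FPKM in fibroblasts, 10.7 and 12.4 FPKM in WT and labelled KO heart, and 3.11 and 1.80 FPKM in liver. Of 8 collagen receptors, 3 were higher, including Ddr2, a receptor kinase for fibrillar collagen, with a gap of 4.17, and the integrin gene Itga11 with 3.15. Of 8 small leucine-rich proteoglycans, which coat fibrils, 4 were higher, led by Ogn at 4.16 and Aspn at 3.98. Among 10 basement membrane partners, 1 was higher, Nid1 with a gap of 1.28, beside none of the 4 type IV genes. None of these groups had a gene lower in fibroblasts by 2-fold.

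Between heart and liver, 9 of 10 basement membrane partners were higher in heart, where 15.8% of all features were higher and 13.8% lower, with the laminin gene Lama4 leading at a gap of 4.85 and Lamb1 at 3.65. Collagen processing genes were higher in heart for 10 of 19, crosslinking genes for 5 of 12, receptors for 3 of 8 and proteoglycans for 4 of 8. Pcolce2 was the single gene of those that passed the mean level in these groups that was lower in heart, with a gap of -2.50. In the comparisons of 2 libraries, no gene of collagen processing differed by 2-fold in any of the 7. In labelled KO against WT MEFs, the proteoglycan gene Fmod had log2 ratios of 2.13 with DMSO and 1.98 with GSK126, and Prelp 1.34 and 1.26, whereas Lum had -0.79 and -1.01. In Dnmt3a KO against Dnmt3b KO 2i-MEFs, 3 of 8 proteoglycan genes were at least 2-fold higher, where 4.23% of features were, namely Prelp with a log2 ratio of 2.62, Omd of 1.74 and Fmod of 1.63. Among the 8 collagens outside the 36, 2 reached the mean level, and Col24a1 had a gap of 1.22 in favour of 2i-MEFs over MEFs, at 14.4 and 7.56 FPKM in the Dnmt3b KO and Dnmt3a KO libraries.

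Of the 14150 features, the 5 with a profile over the 10 libraries most like that of Col1a1 were Dync2li1 and Col5a1 (Pearson r = 0.998 each), Gm16229 and Rab34 (0.995 each), and Mrc2 (0.994), a receptor that takes up collagen. For Col4a1 they were Prkra (0.989), Zfp449 (0.988), B230219D22Rik (0.986), Mfap4 and Cx3cl1 (0.982 each). No gene was shared by the 2 lists. These correlations are over log2(FPKM + 1) in 10 libraries that come from 4 sources, so the points share a source and a tissue, and they are given as a description.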

How the data were processed

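For adaptor removal the authors used cutadapt 1.15. Alignment to mm10, guided by GENCODE M15, was done with tophat 2.1.1 (running Bowtie2 2.3.2), unique alignments of a mapping quality of at least 20 were retained, and cufflinks 2.2.1 gave the deposited FPKM. The submitters' processing notes name TopHat2 2.1.0 in place of 2.1.1. The deposited FPKM matrix holds the 10 RNA-seq libraries as columns, and rows of the same symbol were summed. FPKM from unique alignments can misplace reads among overlapping genes, and no library scaling beyond FPKM was applied. Features had a mean of at least 1 FPKM over the 10 libraries. Ratios used log2(FPKM + 1), with a 2-fold limit, and with 1 library per condition no test was made. The depth was estimated from whole-read steps of low values, of which 96.7% to 98.5% fell within 0.1 of a whole read, and 3 simulated depths, drawn for 6716 genes of WT heart, were recovered with an error of at most 0.045%. Counting intervals are exact binomial (Clopper-Pearson, 95%), take all reads as from the longest GENCODE M21 transcript, and cover counting error only. Gene positions in the files equalled GENCODE M21 for all 36 genes. Scripts ran in Python 3.11.15 with pandas 2.3.3, scipy 1.17.1 and numpy 2.4.6. The collagen genes and all gene lists were chosen with earlier results of these data known. All collagens were described by class, with the 5 highest per source and the 5 largest ratios per comparison named, along with the genes called and, for other lists, those with the largest differences. Alternatives were a pseudocount of 0.1 FPKM, rescaling by the median ratio over 9993 genes with at least 1 FPKM in all libraries, no filter on low values, leaving out sets of libraries, and pairing heart with liver by embryo. Methylation libraries were not analysed here.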

Additional observations from a re-analysis of the deposited data

Results flagged for a closer look

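Col12a1 and Col8a2 had opposite ratios under the same labels in 2 sources. For Col12a1 the log2 ratio of labelled Dnmt3a KO to WT was 1.18 in MEFs with DMSO and -1.04 in liver (-0.99 after rescaling, inside the 2-fold limit), but 0.13 in MEFs with GSK126 and -0.13 in heart. For Col8a2 it was 1.22 in MEFs with DMSO and -1.19 in liver, but 0.34 in MEFs with GSK126 and 0.32 in heart. Each value compares 2 libraries, so the difference between the sources was not tested. In liver Col12a1 and Col8a2 were at most 1.79 and 3.06 FPKM, and the same liver libraries differed in skeletal muscle markers, which summed to 289 FPKM in WT and 113 FPKM in the labelled KO. Mylpf made up 231 and 110 FPKM of these sums. The part of these markers was not tested.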

How the results depend on the processing

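Heart and liver came from the same 2 embryos, and paired within each embryo, a setting chosen after the data were seen, 20 collagens in place of 19 were at least 2-fold higher in heart in both embryos and none was lower. Of the recomputed counts, 68 stayed within 1.5 times the reported value and 6 did not. None of the collagen medians or of the named log2 ratios beyond 2-fold changed sign. With a pseudocount of 0.1 FPKM, the collagens at least 2-fold lower numbered 2 in place of 1 in labelled KO MEFs with DMSO, 4 in place of 2 in labelled KO MEFs with GSK126, 1 in place of 0 for GSK126 in WT MEFs (Col15a1), and 7 in place of 4 in liver, where 1 in place of 0 was higher (Col2a1). The collagens that joined these counts had low levels in the libraries compared, and the pseudocount of 1 FPKM shrinks their ratios. Without the MEF libraries labelled Dnmt3a KO, 4 collagens in place of 1 were higher in 2i-MEFs than in MEFs. After rescaling, Col12a1 in liver was at -0.99 in place of -1.04 and Col4a6 in labelled KO MEFs with DMSO at 0.99 in place of 1.03, both just inside the 2-fold limit, while Col3a1 (1.12 in place of 0.99) and Col12a1 (1.07 in place of 0.97) passed it in heart against liver. All-feature medians shifted by at most 0.07. Leaving out the WT liver library, chosen after its muscle markers were seen, gave 22 collagens higher in heart in place of 19. The share of all features called was not computed for these alternative settings. Of the medians over collagens, that of 2i-MEFs was 0.32 in place of 0.48 without the filter on low values and that of liver -0.60 in place of -0.44 with the smaller pseudocount. Depth limits the genes far under 1 FPKM, such as Col11a2 in labelled KO heart at about 5 reads.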
